A study of Mus musculus with 12 samples.

Results

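The 9 genes examined here were Irf2bp2, Bcl6, Rab6a, Gab2, Purb, Cdk17, Ubald1, Prickle1 and Ckb, out of 27095 mouse genes counted. They were selected on the measured values: the H3K14ac signal at their transcription start sites (TSS) was listed among the steepest decreases from proliferating to differentiating neural stem and progenitor cells, outside the immediate early, histone and cell cycle genes. The stage difference of the 9 genes is therefore a description, with no test. H3K14ac, acetylation of histone H3 at lysine 14, was mapped by ChIP-seq, the sequencing of chromatin pulled down with an antibody to the mark, in cells from the cortex and ganglionic eminences of mouse embryos at E14.5 (the embryonic day). Proliferating cells grew as neurospheres, which are floating clusters of dividing cells, and differentiating cells had been dissociated and moved to a laminin surface and cortical neuron medium. Of the 12 libraries, 6 were H3K14ac ChIP from wild-type (WT) cells, 3 for each stage. At each stage there was also 1 library of input (chromatin without immunoprecipitation), 1 of IgG (a non-specific antibody) and 1 of H3K14ac ChIP from cells in which Kat7, also called Hbo1, was deleted (Hbo1 null). The study names WT cells from 4 foetuses, and no label ties a library to a foetus, so the p-values below measure only the spread between these libraries, which may be technical. Cultures of this kind can hold neurons and glia as well as progenitors, so more signal per cell and more cells with signal cannot be told apart.

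HBO1, the product of Kat7, is an acetyltransferase that adds an acetyl group to lysine 14 of histone H3. The mark lies at the start sites of many active genes, where acetylated histones are bound by proteins that open chromatin and promote transcription. In the developing forebrain, progenitors that leave the cell cycle and become neurons change the use of many such start sites.

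The bases just before the start sites are shown first, because the 9 genes were grouped by a measurement made beside them. The counted window of 1000 bases begins at the start site of the authors' annotation, which is not given in the sources used here. It is therefore known only for the RefSeq entries, not for the counted windows, that these bases lie upstream of the start. RefSeq promoter entries for GRCm38.p6 (the mm10 assembly) were found for 7 of the 9 genes, and Gab2 and Cdk17 had none. In the 250 bases before the start 12 motifs were searched on both strands. Those of factors that respond to signals were TGANTCA for AP-1, the full cAMP response element TGACGTCA with the shorter form TGACG inside it, CCGGAAG for ETS factors and the CArG box. Those of general promoters were CCAAT for factors of the CCAAT box, GGGCGG for the GC box and TATAAA for the TATA box. The others were CANNTG for the E-box with its special form CACGTG, TTTCCCGC for E2F and GCATGCGC for NRF1. The 4 sequences printed are those of the 3 genes that hold TGACG and of Ckb, the 1 gene with TATAAA. Capitals mark TGACG as well as the CCAAT box and the TATA box in either orientation, and were chosen after the matches were seen.
Purb: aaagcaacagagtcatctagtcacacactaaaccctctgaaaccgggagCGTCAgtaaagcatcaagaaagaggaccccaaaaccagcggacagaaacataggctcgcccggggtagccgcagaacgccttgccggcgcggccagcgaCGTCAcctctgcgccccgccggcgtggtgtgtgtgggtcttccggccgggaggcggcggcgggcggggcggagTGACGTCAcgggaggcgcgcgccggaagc
Bcl6: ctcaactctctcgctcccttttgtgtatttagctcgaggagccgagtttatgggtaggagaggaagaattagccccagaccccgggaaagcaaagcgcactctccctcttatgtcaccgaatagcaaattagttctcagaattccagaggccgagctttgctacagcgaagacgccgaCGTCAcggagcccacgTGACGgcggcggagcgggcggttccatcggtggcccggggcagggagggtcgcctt
Rab6a: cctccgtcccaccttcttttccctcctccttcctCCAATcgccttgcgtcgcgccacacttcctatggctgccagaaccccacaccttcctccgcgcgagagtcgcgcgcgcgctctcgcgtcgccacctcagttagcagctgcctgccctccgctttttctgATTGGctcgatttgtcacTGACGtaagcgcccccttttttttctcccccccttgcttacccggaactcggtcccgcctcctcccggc
Ckb: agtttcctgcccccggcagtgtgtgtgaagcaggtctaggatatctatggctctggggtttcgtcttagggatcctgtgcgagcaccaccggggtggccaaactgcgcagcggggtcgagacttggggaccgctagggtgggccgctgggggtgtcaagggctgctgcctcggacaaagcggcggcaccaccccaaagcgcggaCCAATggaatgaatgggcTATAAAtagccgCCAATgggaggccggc

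These 4 sequences lie at chr11:6476077-6476326 (Purb, minus strand), chr16:23988853-23989102 (Bcl6, minus strand), chr7:100607336-100607585 (Rab6a, plus strand) and chr12:111672339-111672588 (Ckb, minus strand). TGACG was found in 3 of 7 promoters and in 17.8% of all 32851 promoters of the same length. Against the RefSeq extents printed below, the promoters of Purb, Ckb and Irf2bp2 lie outside the gene, those of Bcl6 and Rab6a reach 14 and 11 bases into it, and all 250 bases of those of Ubald1 and Prickle1 lie inside it, within its first 1000 bases. The full element TGACGTCA, which contains TGACG on both strands, was found only in Purb among the 7, beginning 29 bases before the start, and in 1.55% of all promoters. In Bcl6 the second TGACG overlaps a CACGTG, a form found in 6.02% of all promoters. CCAAT was present in Rab6a, Prickle1 and Ckb (33.8% of all promoters), and TATAAA in Ckb, 28 bases before its start (12.4% of all promoters). GGGCGG was present in Irf2bp2, Bcl6, Purb and Prickle1 (32.7% of all), CANNTG in Irf2bp2, Bcl6 and Rab6a (66.2%) and CCGGAAG in Purb (6.91%). None of the 7 held TGANTCA (6.75% of all), TTTCCCGC (0.895%), GCATGCGC (2.26%) or a CArG box (1.47%), and the promoter of Ubald1 held none of the 12 motifs. The 7 promoters had 58.4% (Bcl6) to 74.0% (Prickle1) G and C, against a median of 52.4% over all promoters. They held 16 (Ckb) to 34 (Prickle1) CG pairs, against a median of 6. A match of letters is a description and shows no binding.

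Reads were given by the authors as counts per gene in the TSS window and over the gene body, which contains the window. Levels below are CPM, counts per 1e6 gene body counts of the library. All windows have the same length, so levels of different genes need no correction for length. They are not corrected for input, which also differed between windows, from 0.674 (Irf2bp2) to 2.11 CPM (Prickle1) among the 9 in proliferating cells. Gene body counts per library ran from 3992697 to 17074249 in the WT libraries, from 11871306 to 12689734 in the inputs and from 2526252 to 2771713 in the IgG libraries, but were only 64071 and 320601 in the Hbo1 null libraries. Of all gene body counts, TSS windows took 4.56% to 4.90% in proliferating WT, 3.24% to 3.68% in differentiating WT and 2.83% to 3.36% in the 6 controls. The windows of 12 marker genes of neural stem cells summed to 2.85 to 3.56 times the input of the stage in proliferating WT libraries and to 1.40 to 2.10 times in differentiating ones. For 10 neuron markers the sums were 1.20 to 1.31 and 1.04 to 1.26 times input, and for 9 markers of microglia, blood and endothelium 0.684 to 0.940 and 0.884 to 1.19 times. Together, 8 single-copy Y chromosome genes held 9.94 and 12.6 CPM in the inputs and 259 and 306 in the IgG libraries. In WT replicates 1, 2 and 3 they held 64.1, 15.3 and 13.9 CPM (proliferating) and 14.9, 15.7 and 286 (differentiating). The shallow Hbo1 null libraries held 46.8 and 197 CPM there. Input and IgG of a stage, and WT replicates of a stage, were thus unlike in Y chromosome signal. The gene body of Kat7 held 26.9 to 37.9 CPM in WT, 44.5 and 47.2 in input, and 62.4 (4 counts) and 34.3 (11 counts) in the null libraries, which does not show whether the gene was cut. The part of these differences in the results below was not tested.

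Irf2bp2, Bcl6 and Purb encode regulators that act on DNA. Irf2bp2 (GeneID 270110, chromosome 8, 126588296 to 126593986) encodes a corepressor that binds the transcription factor IRF2. Its window held 5.06, 12.5 and 8.80 CPM across proliferating WT replicates 1, 2 and 3, compared with 2.31, 2.03 and 2.23 across the differentiating replicates. All proliferating libraries lay above all differentiating ones, and the proliferating values spread over a far wider range. The input held 0.674 CPM (proliferating) and 1.10 (differentiating), and IgG 1.58 and 1.44. Bcl6 (GeneID 12053, chromosome 16, 23965050 to 23988866) encodes a zinc finger repressor that, in the cortex, promotes neurogenesis by repressing Notch targets such as Hes5. Its window held 8.14, 10.0 and 9.85 CPM in the proliferating replicates, compared with 2.95, 2.43 and 2.34 after differentiation. The groups were far apart and each was narrow. Bcl6 had the highest mean of the 9 genes at both stages, and only 28 of all 27095 windows were higher in proliferating cells. The inputs held 1.10 and 1.66 CPM and the IgG libraries 0.792 and 0.361. The long noncoding RNA gene Gm31527 shares 600 bases with the start of Bcl6 in RefSeq and was not analysed here, so signal of these genes cannot be told apart there. Purb (GeneID 19291, chromosome 11, 6467599 to 6476076) encodes a protein that binds purine-rich single-stranded DNA and RNA. Its window held 3.52, 8.02 and 7.62 CPM in the proliferating replicates, compared with 2.55, 1.41 and 1.70 after differentiation, so the lowest proliferating library came close to the highest differentiating one. The inputs held 1.26 and 0.946 CPM. The IgG libraries held 1.58 and 2.53 CPM, and the latter lay within the range of the differentiating WT libraries.

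Another 3 genes encode proteins of signalling and transport. Rab6a (GeneID 19346, chromosome 7, 100607575 to 100641268) encodes a small GTPase that directs vesicles from and to the Golgi. Its window held 7.70, 11.02 and 6.83 CPM in the proliferating replicates, compared with 2.87, 1.49 and 2.69 after differentiation. The groups did not overlap, against 0.927 and 1.26 CPM in the inputs and 2.77 and 0.361 in the IgG libraries. Mrpl48, a gene of the mitochondrial ribosome on the other strand, shares 727 bases with Rab6a at their starts, so the windows cover some of the same bases. The Mrpl48 window held 5.86 ± 1.86 CPM (SD, n = 3) in proliferating and 1.50 ± 0.226 in differentiating WT libraries, and which of the genes the signal belongs to cannot be told apart. Gab2 (GeneID 14389, chromosome 7, 97081751 to 97308951) encodes a scaffold that passes signals from receptor tyrosine kinases. Its window held 5.94, 9.52 and 4.99 CPM in the proliferating replicates, compared with 2.55, 1.49 and 1.64 after differentiation, with no overlap. The inputs held 1.18 and 1.10 CPM. The proliferating IgG library had 0 counts there, which allows up to 1.19 CPM (3 counts), and the differentiating one 0.722 CPM. Cdk17 (GeneID 237459, chromosome 10, 93160876 to 93251094) encodes a cyclin-dependent kinase of the PCTAIRE group, which is expressed in neurons. Its window held 5.72, 9.02 and 5.91 CPM in the proliferating replicates, compared with 2.63, 1.33 and 1.99 after differentiation. The values again did not overlap, and both inputs (1.01 and 1.02 CPM) and both IgG libraries (0.396 and 0.722) lay below all 6.

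The remaining genes have other roles. Ubald1 (GeneID 207740, chromosome 16, 4874779 to 4880320) encodes a protein with a UBA-like domain. Its window held 5.94, 6.76 and 7.09 CPM in the proliferating replicates, compared with 2.15, 1.17 and 1.41 after differentiation. The groups were well apart, with 1.10 and 0.946 CPM in the inputs and 0.792 and 0.722 in IgG. Prickle1 (GeneID 106042, chromosome 15, 93499111 to 93596266) encodes a core protein of planar cell polarity, the pathway that aligns cells within a sheet. Its window held 4.40, 5.51 and 5.65 CPM in the proliferating replicates, compared with 1.83, 0.939 and 1.11 after differentiation. Its input also differed between the stages, by more than counting error, which no other of the 9 windows did, with 2.11 CPM (25 counts) in proliferating and 0.552 CPM (7 counts) in differentiating cells. IgG held 1.19 and 1.08 CPM. Ckb (GeneID 12709, chromosome 12, 111669355 to 111672338) encodes the brain form of creatine kinase, which buffers ATP. Its window held 3.52, 5.51 and 3.68 CPM in the proliferating replicates, compared with 1.99, 1.49 and 1.58 after differentiation. The groups did not overlap. The inputs held 1.60 and 1.18 CPM and the IgG libraries 2.77 and 1.80, so all but the differentiating input lay within or above the range of the differentiating WT libraries.

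**Figure D1:**
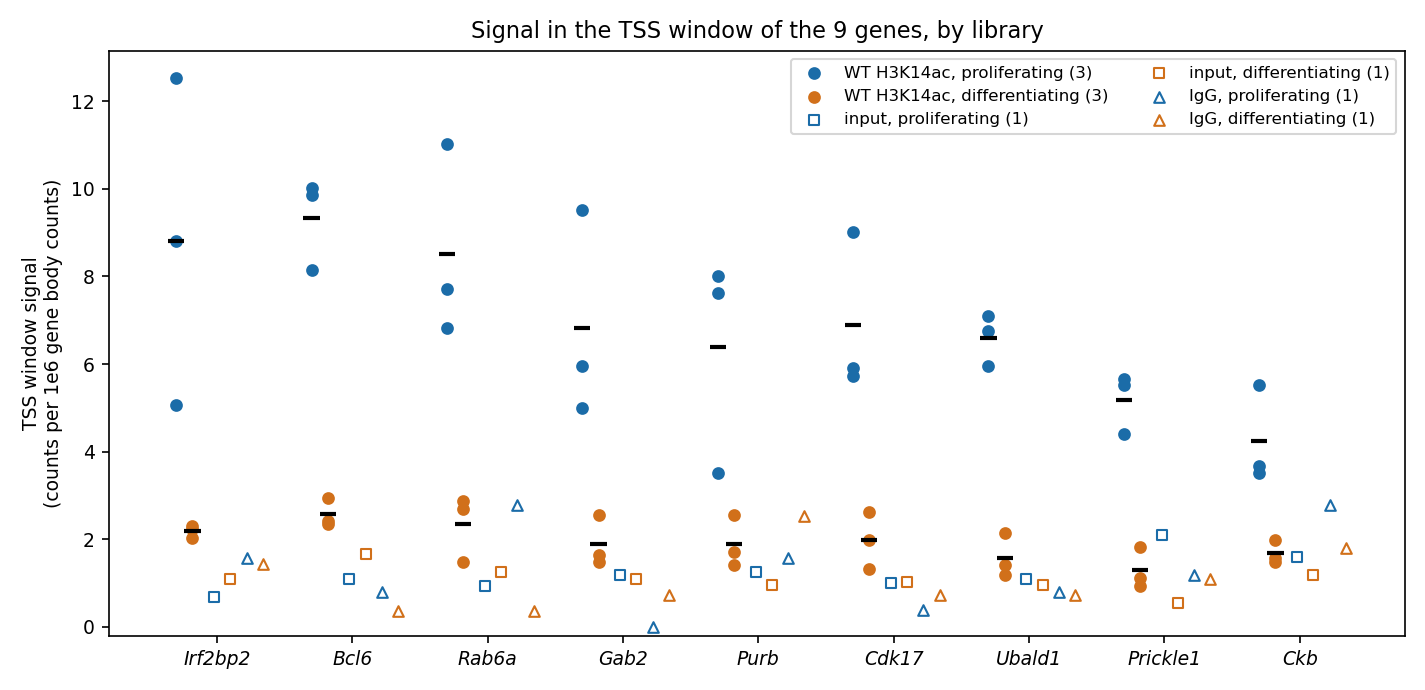
Signal in the TSS window of each gene (CPM, counts per 1e6 gene body counts) in the 3 WT H3K14ac libraries of each stage (filled circles; black bars are means) and in the single input (squares) and IgG (triangles) library of each stage. Proliferating WT values lie above the differentiating ones for all 9 genes, which were chosen for a decrease between these stages. For Ckb the IgG values of 2.77 and 1.80 CPM reach into the range of the WT libraries.

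Proliferating levels thus ran in the order Bcl6 (9.34 ± 1.04 CPM, SD, n = 3), Irf2bp2 (8.80 ± 3.73), Rab6a (8.52 ± 2.21), Cdk17 (6.88 ± 1.85), Gab2 (6.82 ± 2.39), Ubald1 (6.60 ± 0.593), Purb (6.39 ± 2.49), Prickle1 (5.19 ± 0.683) and Ckb (4.24 ± 1.11). Neighbours in this order differed by less than the larger of their SDs. In proliferating WT cells, between 96.9% (Ckb) and 99.9% (Bcl6) of all windows had a lower mean level. The differentiating levels ran from 2.57 ± 0.328 CPM for Bcl6 to 1.29 ± 0.474 for Prickle1, and there 63.8% (Prickle1) to 99.4% (Bcl6) of windows were lower. Bcl6, Rab6a and Irf2bp2 thus still ranked high among all windows after the decrease, with 99.0% and 98.4% of windows below the latter genes. The libraries differed in parallel over the genes: proliferating replicate 2 was highest for 7 of the 9, differentiating replicate 1 for 9 of 9, and differentiating replicate 2 lowest for 8 of 9. These libraries also had the highest (4.90% and 3.68%) and lowest (3.24%) shares of counts in TSS windows within their stage, and the part of that share in the levels was not tested.

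On the CPM scale the proliferating mean was 2.51 (Ckb) to 4.19 (Ubald1) times the differentiating one. The stages did not overlap on that scale in any of the 9 genes, which the choice of the genes favoured. The share of all windows without overlap was not counted, so nothing is read from this for the 9 genes. With the scaling of the edgeR fit across all windows (TMM, which sets most windows as unchanged), the log2 difference, differentiating minus proliferating, was −1.58 for Ubald1 (SE 0.27), −1.53 for Prickle1 (0.28), −1.48 for Irf2bp2 (0.27) and −1.37 for Bcl6 (0.26). It was −1.31 for Rab6a, −1.30 for Gab2, −1.29 for Purb and −1.26 for Cdk17, each with an SE of 0.27. Ckb stood apart at −0.79 (SE 0.28). In the edgeR fit 4.42% of 19477 windows tested were lower and 2.04% higher in differentiating cells at an adjusted p of 0.05, from which nothing is read for the 9 genes, since this contrast chose them. Gene body totals in place of TMM gave −1.29 (Ckb) to −2.08 (Ubald1), a scaling under which the median over all windows was −0.47 in place of 0.03. With only the 270 windows of a mean count of at least 30 in the fit, which also resets TMM, Irf2bp2, Bcl6, Rab6a, Gab2, Purb and Cdk17 gave −0.58 to −0.80, and the other 3 were not in it.

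The ranking itself places the genes as follows. Ranked were windows called lower whose stages did not overlap, whose mean count reached 30 and whose gene was named and outside the excluded lists. There Irf2bp2 ranked 1, Bcl6 2, Rab6a 5, Gab2 6, Purb 7 and Cdk17 8 of 90. Ranks 3 and 4 were Smarca5 (−1.33) and Setd7 (−1.31), genes of a chromatin remodeller and a lysine methyltransferase, which are not among the 9. Just inside was Cdk17 (−1.26), and just outside were Hnrnpa2b1 (−1.25), Ptp4a1 (−1.24) and Dip2b (−1.24), so the edge of the group is no gap. Ubald1 and Prickle1 had steeper decreases but mean counts of 29.0 and 23.2, under that minimum. With a minimum of 20 they ranked 1 and 2, and Irf2bp2 ranked 4, Bcl6 14, Rab6a 25, Gab2 26, Purb 28 and Cdk17 35. The places between were held by genes that are not among the 9. Ckb, with a mean count of 22.8, ranked 1260 of 9375 decreases in the TSS window, so its window goes against the description of a steepest fall. Over the whole gene body, in a fit added after seeing the data, its log2 difference was −1.26 (SE 0.19) and its rank 58 of 24564 gene bodies.

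**Figure D2:**
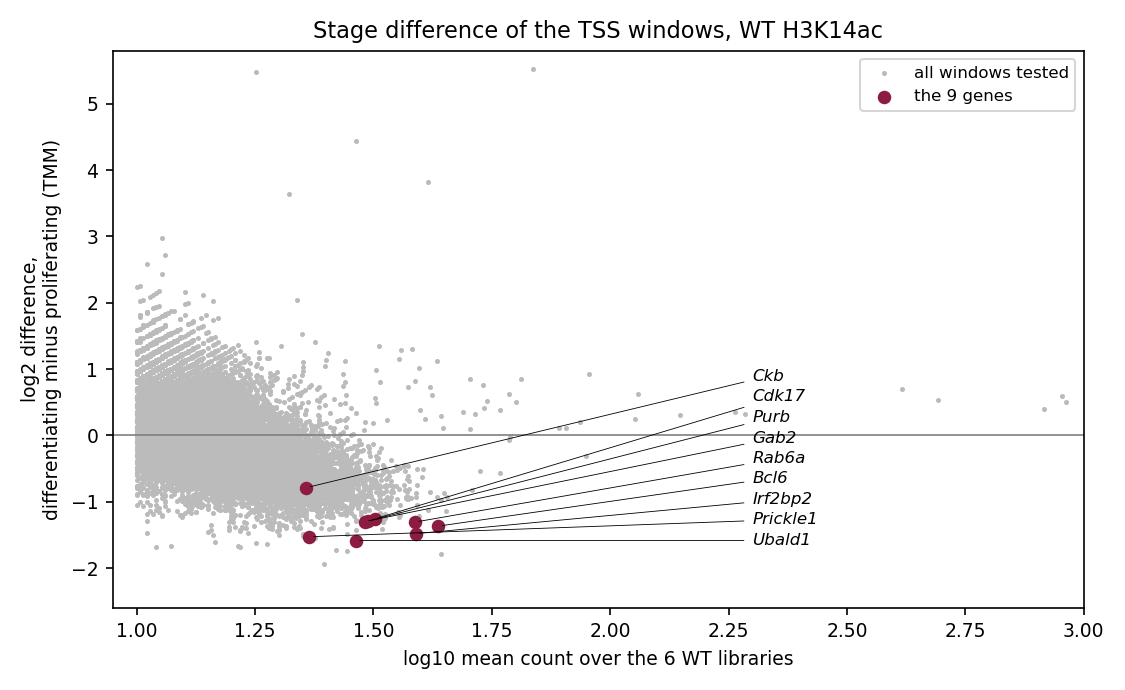
Log2 difference of the TSS window between differentiating and proliferating WT cells (TMM scaling, y axis) against the log10 mean count over the 6 WT libraries (x axis) for all 19477 windows tested (grey) and the 9 genes (red). The other 8 genes lie between −1.26 and −1.58 at the lower edge of the cloud for their counts, while Ckb lies inside it at −0.79.

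How far the windows stood above background was asked next, against the input and IgG of each stage. In proliferating cells the mean WT signal was 13.1 times input for Irf2bp2, 9.19 times for Rab6a and 8.53 times for Bcl6. It was 6.81 times for Cdk17, 6.03 for Ubald1, 5.78 for Gab2 and 5.05 for Purb, but only 2.65 for Ckb and 2.46 for Prickle1. The deposited names of the inputs carry the number 1 of a WT replicate. Proliferating replicate 1 was the lowest of its stage for 7 of the 9 genes, with 7.51 times input for Irf2bp2 and 2.79 for Purb. Differentiating replicate 1 was the highest of its stage for 9 of 9. For all 9 genes each of the 3 proliferating WT libraries lay above the 95% exact Poisson interval of the input count, which covers counting error only. In differentiating cells the ratio was 1.43 (Ckb) to 2.35 (Prickle1), with a median of 1.86 over the 9 genes against 6.03 in proliferating cells. All 3 differentiating WT libraries were above the input value for 9 of 9 genes, but above its interval for only 1, Irf2bp2. The differentiating ratios rest on 7 to 21 input counts per window. The share of all windows above the input in this way was not counted. As the WT values of both stages chose the genes, these counts and the lower differentiating ratios only describe the 9.

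Set against the input of its stage, the log2 difference between stages was −2.62 for Irf2bp2, −2.46 for Bcl6, −2.33 for Rab6a, −1.90 for Ubald1, −1.84 for Cdk17, −1.74 for Gab2, −1.30 for Purb and −0.87 for Ckb. For Prickle1 it was −0.12, so its WT window and its input window changed by about the same factor. These are ratios to 1 input library per stage on gene body totals, given as a description. In the stage fit on that scale the median over all windows was −0.47. The input window differed by 0.71 for Irf2bp2 (interval for counting error −0.64 to 2.17). For Bcl6 it differed by 0.60 (−0.47 to 1.72) and for Rab6a by 0.44 (−0.75 to 1.70). It was lower at differentiation for Gab2, Purb, Ubald1, Prickle1 and Ckb. Only the Prickle1 interval excluded no difference, so nothing is read from the order of the other genes.

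A fit of the 6 WT against the 2 input libraries, with stage as a term, asked about the level averaged over the stages. The same WT libraries chose the genes for their stage difference, so this fit is not independent of the selection. Its adjusted p-values for the 9 genes are therefore a description and no separate support. With only windows of a mean count of at least 30 in the fit, 64 of 129 were higher in WT ChIP. All 3 of the 9 genes tested there were among them. In the main fit, by edgeR's quasi-likelihood test, 8 of the 9 windows were higher in WT ChIP, where 11.6% of 21557 windows tested were. The log2 excess was 2.27 (SE 0.46, adjusted p = 0.000311, above the input of its stage in 6 of 6 libraries) for Irf2bp2. It was 1.99 for Rab6a, 1.87 for Cdk17, 1.76 for Bcl6, 1.74 for Ubald1, 1.73 for Purb and 1.66 for Gab2, with adjusted p from 0.000891 to 0.00372. Prickle1 gave 1.27 (SE 0.40, adjusted p = 0.0220) and Ckb 0.97 (SE 0.38, adjusted p = 0.0765), which did not pass. The calls rest on the proliferating input: without that library none of the 9 passed and 25 windows did in all (2071 at an unadjusted p under 0.05), while without the differentiating input all 9 passed. For Prickle1 the call was also lost with TMM scaling (adjusted p = 0.0607) and without WT differentiating replicate 1 (0.0764).

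Against IgG the values were less even. The proliferating ratio was 17.4 for Cdk17, 11.8 for Bcl6, 8.34 for Ubald1, 5.56 for Irf2bp2, 4.37 for Prickle1, 4.03 for Purb, 3.07 for Rab6a and 1.53 for Ckb. For Gab2, with no IgG count, it was at least 5.74-fold higher, taken over the 3 counts that a count of 0 allows in that library, and 4.67-fold over the upper end of the two-sided 95% interval. IgG counts were 0 to 7 per window, so these ratios are loose: for Cdk17 the interval from the 1 IgG count ran from 3.12 to 687. All 3 proliferating WT libraries lay above the IgG value for 9 of 9 genes and above its interval for 7, Purb and Ckb being the exceptions. In differentiating cells all 3 lay above the value for 6 of 9 genes, and above its interval for 1, Bcl6. There the ratio was 7.13 for Bcl6 and 6.51 for Rab6a, but 1.20 for Prickle1, 0.935 for Ckb and 0.747 for Purb. As for input, the share of all windows above IgG in this way was not counted, and the counts only describe the 9 genes.

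The fit against the 2 IgG libraries used the WT libraries that chose the genes, so it is not independent of the selection either. Its adjusted p-values for the 9 genes are likewise a description. With only windows of a mean count of at least 30 in it, 26 of 72 were higher in WT. All 3 of the 9 genes tested there were among them. In the main fit, where 5.13% of 13158 windows were higher in WT, 6 of the 9 genes passed. Their log2 excess was 3.35 for Gab2, 3.31 for Bcl6, 2.84 for Cdk17, 2.33 for Ubald1, 1.81 for Rab6a and 1.72 for Irf2bp2 (edgeR adjusted p from 0.00178 to 0.0433, each above the IgG of its stage in 6 of 6 libraries). Prickle1 (1.42, adjusted p = 0.118), Purb (0.85, 0.285) and Ckb (0.30, 0.728) did not pass. Without the proliferating IgG library none of the 9 passed, 0 windows were higher in all and 5 were lower (1552 of 16262 at an unadjusted p under 0.05), and with TMM scaling only Bcl6 did, of 15 windows higher in all. Purb (−0.43) and Ckb (−0.10) were on the other side of zero without that library, as was Ckb (−0.34) with TMM. Irf2bp2 was not called with the filter on counts removed or without WT proliferating replicate 2 or 3 or differentiating replicate 3, nor Rab6a without WT proliferating replicate 2 or the differentiating IgG library.

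**Figure D3:**
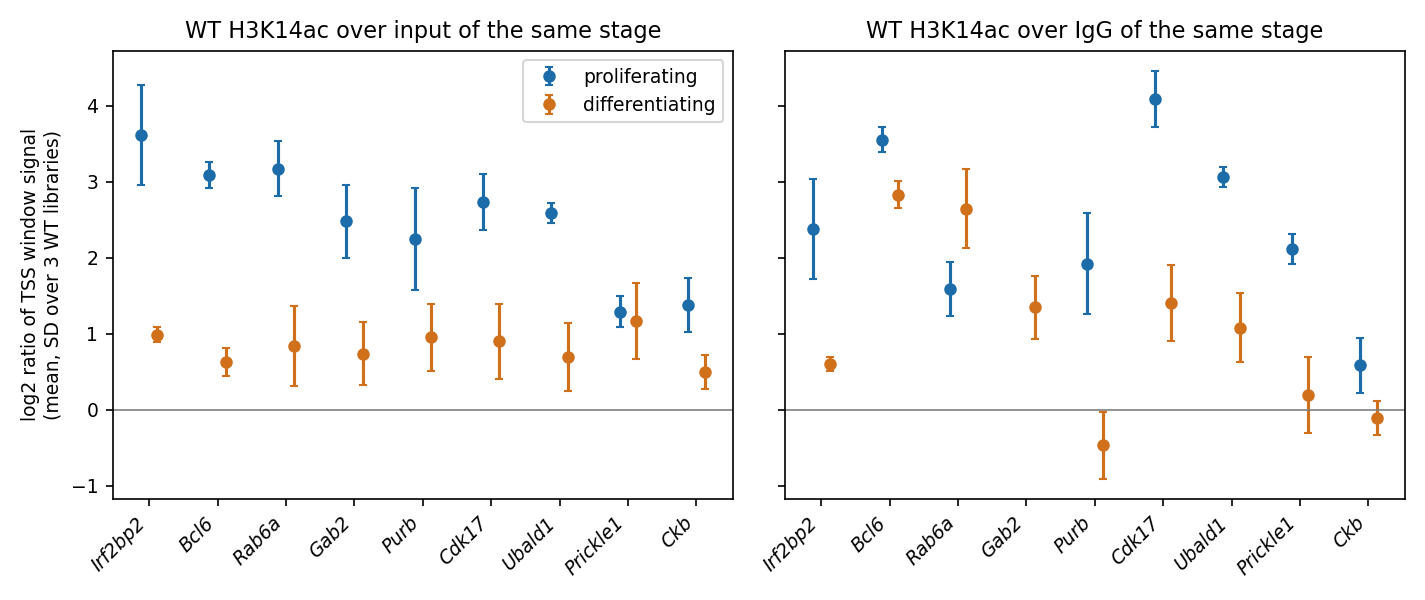
Log2 ratio of the WT H3K14ac signal in the TSS window to the input (left) and IgG (right) library of the same stage, as mean and SD over 3 WT libraries; Gab2 has no proliferating IgG value because that library had 0 counts. Against input, Irf2bp2 lies highest in proliferating cells (13.1 times), and Prickle1 lies at 2.46 and 2.35 times at the respective stages.

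In the H3K14ac ChIP from Hbo1 null cells all 9 windows were at 0 in both libraries. So were 94.8% of all windows in the proliferating and 75.8% in the differentiating null library. At the depth of these libraries the 9 windows together would hold 4.02 and 5.59 counts at the WT share of the stage, and 0.702 and 3.13 counts at the input share. A summed count of 0 allows up to 46.8 CPM in the proliferating and 9.36 CPM in the differentiating null library (3 counts each, a one-sided limit), and the two-sided 95% exact Poisson intervals reach 57.6 and 11.5 CPM. The summed signal was 49.97, 77.9 and 60.4 CPM in proliferating WT replicates and 21.8, 13.8 and 16.7 CPM in differentiating replicates. The 3 differentiating sums lay above both limits of their stage, and the proliferating sums above the limit of 3 counts, but replicate 1 (49.97) lay below the end of the two-sided interval. Inputs summed to 10.95 and 9.77 CPM and IgG libraries to 11.9 and 9.74. Neither null library was deep enough to be set apart from the input, whose sums lay below both proliferating limits and, in differentiating cells, between the 2 limits. The rest of the 9 gene bodies held 28 and 141 counts in the null libraries (437 and 440 CPM), near the 473 and 419 CPM of the inputs. Without Prickle1 and Ckb, a choice made after seeing the data, the other 7 windows summed to 42.0 to 66.9 CPM in proliferating and 11.3 to 18.01 in differentiating WT libraries. The lowest differentiating sum lay between the 2 null limits of 9.36 and 11.5 CPM. Of the proliferating sums 42.0 lay below both limits of 46.8 and 57.6 CPM, 51.1 between them and 66.9 above both.

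Beyond the window, the rest of the gene body followed it in some of the genes and not in others. In Rab6a, Gab2 and Cdk17, the rest of the gene body had log2 stage differences of 0.22, 0.10 and 0.04 in WT libraries, while their windows were at −1.89, −1.84 and −1.82 on the same gene body scale. The window's share of gene body counts went from 22.4% ± 3.31 to 6.54% ± 2.31 (SD, n = 3 each) in Rab6a. It went from 8.08% ± 1.65 to 2.44% ± 0.878 in Cdk17 and from 3.53% ± 0.867 to 0.965% ± 0.329 in Gab2. Bcl6 and Ubald1 had rests of −0.21 and −0.25, with window shares of 27.6% ± 3.66 and 10.8% ± 1.01 in Bcl6 and 60.5% ± 4.79 and 29.9% ± 5.87 in Ubald1. In Purb (−0.66) and Irf2bp2 (−0.94), genes of 8478 and 5691 bases, the rest of the body was lower in differentiating cells as well. Their window shares were 33.8% ± 9.85 and 19.9% ± 6.58 for Purb and 50.8% ± 14.1 and 34.6% ± 2.04 for Irf2bp2. Input shares in these 7 genes stayed between 0.629% and 23.0% at both stages.

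Ckb showed another pattern. Its rest of the gene body was lower by as much as its window, with log2 differences of −1.30 and −1.31. The window held 38.6% ± 4.03 of its gene body counts in proliferating and 38.3% ± 1.11 in differentiating WT cells, against 44.2% and 36.6% in the inputs. Over this gene of 2984 bases the window share was thus about the same at both stages and between the shares in the inputs. The input did not show the WT difference in the rest of the body (0.02, 95% interval −0.84 to 0.88), while IgG gave −1.13 with a wide interval (−3.76 to 1.09).

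**Figure D4:**
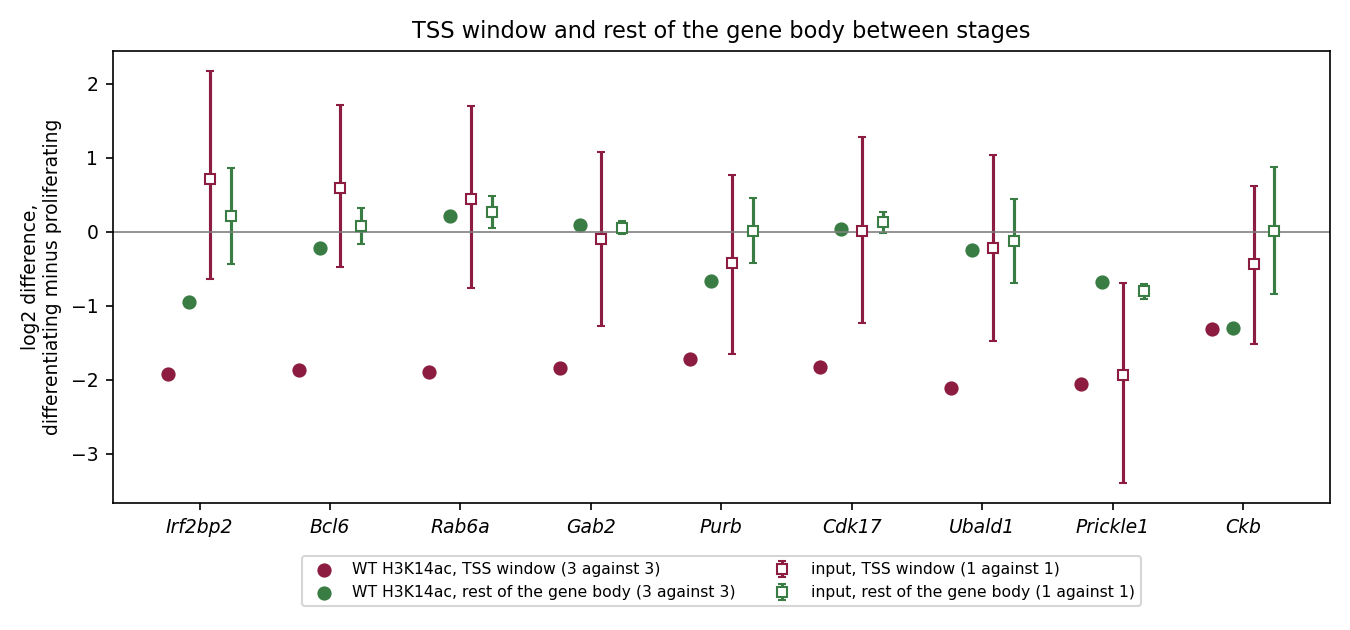
Log2 stage difference (differentiating minus proliferating, on gene body totals) of the TSS window and of the rest of the gene body, in WT H3K14ac (filled circles, means of 3 against 3) and input (open squares, 1 against 1, with 95% intervals for counting error). Window and rest are apart in Rab6a, Gab2 and Cdk17 and together in Ckb, and Prickle1 is the only one of the 9 whose input intervals lie below zero, in window and rest alike.

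Prickle1 was lower in the differentiating input too. Over its whole gene body of about 97 kb, the input went from 177 CPM at proliferation to 101 CPM at differentiation, a log2 difference of −0.81 (95% interval −0.91 to −0.71, for counting error only). In its window the input difference was −1.93 (−3.39 to −0.68). WT gene bodies held 165, 144 and 159 CPM in proliferating and 99.6, 90.2 and 96.6 in differentiating cells, which gives −0.71. IgG held 119 and 105 CPM (−0.18, interval −0.42 to 0.06). The Hbo1 null libraries held 140 and 81.1 CPM, from only 9 and 26 counts. Of the 1506 gene bodies with at least as many input counts, none had a higher ratio of proliferating to differentiating input, and the SD of that log2 ratio among them was 0.13. The 33 gene bodies within 3 Mb with at least 100 input counts ran from −0.35 to 0.15 in the same direction of subtraction, with a median of −0.01. The Prickle1 window and gene body were thus lower by like amounts in WT ChIP and in unprecipitated chromatin.

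**Figure D5:**
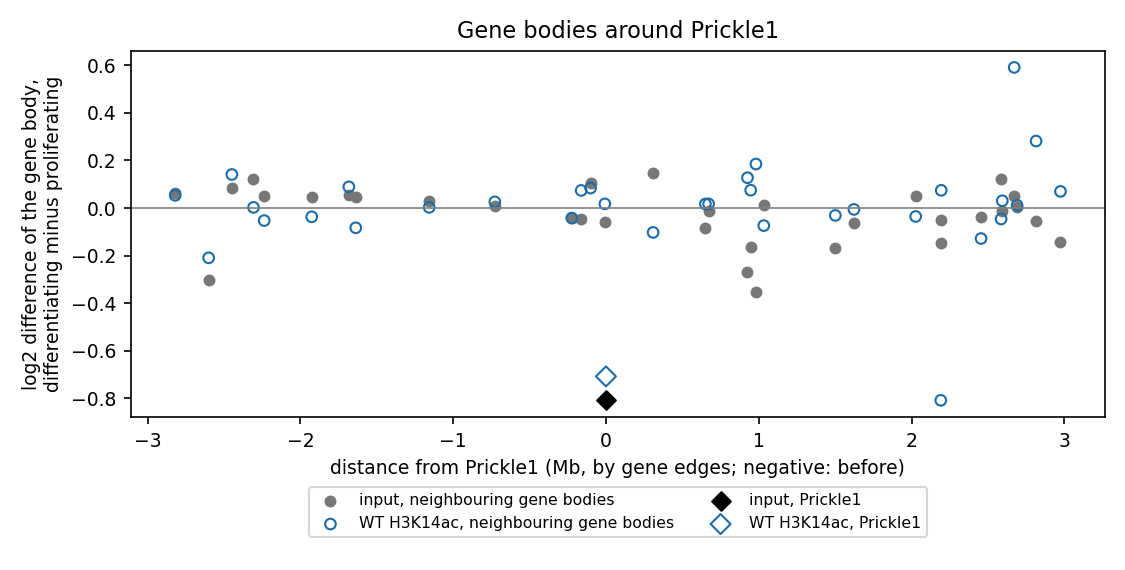
Log2 stage difference of gene bodies (differentiating minus proliferating) against their distance from Prickle1 in Mb, for input (filled) and WT H3K14ac (open); circles are the 33 neighbours and diamonds are Prickle1. Prickle1 lies at −0.81 in input and −0.71 in WT, below all neighbours in input, while 1 neighbour, A130051J06Rik, lies at −0.81 in WT but at −0.05 in input.

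Paralogs and partners of the 9 genes were then looked up in the stage fit. Of 57 such genes 51 passed the count minimum, 8 were lower in differentiating cells (15.7%) and 0 were higher, where 4.42% and 2.04% of all windows were. Their median log2 difference was −0.49, against 0.03 over all windows tested, and 41 of the 51 were negative. These shares describe the list and were not tested against other lists. The lists were written with earlier results of these data known.

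Among partners of Rab6a 3 of 7 were lower: Kif1c, a motor of the kinesin family (−1.20, adjusted p = 0.00668), Bicd1, an adaptor for dynein (−0.94, 0.0266), and Erc1, a scaffold at sites of vesicle fusion (−0.90, 0.0394). Kif1c held 3.37 ± 0.157 CPM in proliferating and 1.02 ± 0.224 in differentiating WT cells. For Gab2, 1 of 10 was lower: Sos1, the exchange factor that activates Ras (5.13 ± 0.725 against 1.54 ± 0.399 CPM, −1.21, adjusted p = 0.00216). The Bcl6 list had 1 of 7, the corepressor Ncor1 (−0.88, 0.0380), and Hes5 was not called. The Irf2bp2 list had 1 of 3, its paralog Irf2bpl, at 6.68 ± 0.614 against 2.61 ± 1.11 CPM (−0.85, adjusted p = 0.0301). For Cdk17 it was 1 of 6, Ccny, the cyclin Y that binds PFTAIRE and PCTAIRE kinases (−0.92, 0.0273), and for Prickle1 1 of 10, Fzd3, a receptor of planar cell polarity (−0.80, 0.0463). All of these adjusted p are from edgeR over all windows. In each of the 8 genes the CPM of the 3 differentiating libraries lay below the lowest proliferating one. The same held for many related genes that were not called, Hes5 among them, so it does not set the 8 apart.

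None of the 2 PUR genes, the 1 paralog of Ubald1 or the 5 tested genes of creatine metabolism passed. The smallest p in those lists belonged to Pura (−0.60, adjusted p = 0.261), Ubald2 (−0.64, 0.176) and Slc6a8, the creatine transporter (−0.91, 0.0755). The count of 8 was sensitive to single libraries: it was 3 without WT proliferating replicate 2 or 3 and 2 without WT differentiating replicate 2 or 3. It was 4 in DESeq2 and 33 with gene body totals, and no related gene was higher under any of these.

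Over the 6 WT, 2 input and 2 IgG libraries, the profile of each gene correlated with the mean of the other 8 at r = 0.82 (Ckb) to 0.99 (Ubald1), as a description over 10 libraries that share the difference between stages and between ChIP and controls. Of 66 other genes that reached a mean count of 30 in these libraries, the profile most like the mean of the 9 was that of Jun, an immediate early gene of the AP-1 family (r = 0.97). Its window held 9.31 CPM on average in proliferating and 2.93 in differentiating WT libraries, 1.43 and 1.65 in the inputs and 1.19 and 1.80 in IgG. Next came Spry2, an inhibitor of receptor tyrosine kinase signalling (r = 0.95), Chaserr, a long noncoding RNA (r = 0.95), AW047730 (r = 0.92) and Rbm39, a splicing factor (r = 0.88). Spry2 went from 7.96 to 3.17 CPM and Chaserr from 9.41 to 3.75.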

How the data were processed

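Raw counts were deposited, in a table of TSS windows of 1000 bases and a table of gene bodies, which the authors made with featureCounts on mm10 after bcl2fastq, per the submitters' processing notes. The aligner, versions and treatment of reads that align to several places are not given in the sources used here, nor is the annotation of the start sites. All 24 deposited files of single samples equalled their columns. Symbols and coordinates came from RefSeq for GRCm38, which matched 25204 of 27095 IDs.

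The 9 genes and all gene lists were chosen with earlier results of these data known. Other genes named are those related genes called in the stage comparison (up to 4 per list, or the 1 with the smallest p), the 5 profiles most like the mean, the 3 genes just outside the ranking and genes whose window overlaps a member's. Smarca5, Setd7, Hes5 and A130051J06Rik were named after their values were seen.

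Tests used edgeR 4.0.16 in R 4.3.3 (quasi-likelihood, two-sided, prior count 0.125, mean count of at least 10, Benjamini-Hochberg over all windows, threshold 0.05). SEs were derived from the F statistic and the log2 estimate. The stage fit used the 6 WT libraries with TMM on TSS counts, and the fits against input and IgG used gene body totals and a stage term. Alternatives included DESeq2 1.42.0. Intervals are 95% exact Poisson for counts and exact binomial for ratios of 2 counts, and cover counting error only. The test code was checked on simulated counts. Replicate numbers do not pair the libraries: the deviations of same-numbered libraries correlated at −0.01, −0.03 and 0.00.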

Additional observations from a re-analysis of the deposited data

Results flagged for a closer look

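The Prickle1 gene body differed between the input libraries, which the stage comparison of WT ChIP does not use: the log2 difference, differentiating minus proliferating, was −0.81, from 177 to 101 CPM. It drew attention because none of 1506 gene bodies with at least as many input counts had a higher ratio of proliferating to differentiating input. With 1 input library per stage there was no replicate, and the cause was not tested.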

How the results depend on the processing

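The stage log2 difference of the 9 genes stayed negative under all alternatives run, with a range of −0.58 to −2.08. The genes were chosen for a decrease in these same libraries, so the constant sign follows from the choice and is no support. Total calls in the stage comparison (1257) were 588 with DESeq2, 5060 with gene body totals (64 higher, 4996 lower, against 397 and 860), 44 of 270 windows at a mean count of at least 30, and 319 to 1246 when single libraries were left out. The replicate block, for numbers that do not pair the libraries, gave 761 calls and 2 related genes. Calls over input (2697) were 71 of 129 at the stricter count minimum and 25 to 3990 without single libraries, and calls over IgG (702) were 53 with TMM, 371 with DESeq2, 34 of 72 at the stricter minimum and 5 to 1035 without single libraries. Of the 9 genes, 0 to 9 were higher than input and 0 to 6 higher than IgG without single libraries. At the stricter minimum only 3 were tested against each control, and all 3 passed. With TMM 1 was higher than IgG. Of the related genes, 4 were called with DESeq2, 33 with gene body totals, 0 of 2 at the stricter minimum and 2 to 8 without single libraries. Over IgG, Ckb was at −0.34 with TMM and at −0.10 without the proliferating IgG library, and Purb at −0.43 without it, and without single libraries they ranged up to 0.57 and 2.02. The cause was not tested. Fewer windows tested is part of the stricter minimum by construction. With 7 to 25 counts per window in input and 0 to 7 in IgG, depth of the controls limits every ratio of single genes, and where a control is left out the lone one is taken to vary like WT.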
